A study of Rattus norvegicus with 3 samples.

Results

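The genes described are 10 macrophage scavenger and lipid-associated genes, namely Apoe, Trem2, Tyrobp, Gpnmb, Msr1, Mrc1, Cd163, Lyz2, Aif1 and Lgals3. They were read from the probes whose RefSeq accession named one of these genes, on whole rat genome arrays of Agilent. A named probe was held for 9 of the 10 genes, out of 13301 genes named in all, and Msr1, the class A macrophage scavenger receptor, is not analysed here for want of one. The 9 genes had 11 probes, since Mrc1 and Cd163 had 2 each. The genes were chosen by their measured intensities in MSCs against both sarcoma lines on these same arrays, so every value against MSCs below describes them and tests nothing.

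RNA of 3 cultured rat cell populations was hybridized to 1 array each, with F344 given as the strain of every one. COS1NR is an osteosarcoma line and MFH1NR a line of malignant fibrous histiocytoma (MFH), now classed as undifferentiated pleomorphic sarcoma. Both came from tumors that had been induced with 4-HAQO. Each sarcoma array stands for 1 established line, and both lines carry mutated p53 per the methods. The mesenchymal stem cells (MSCs) came from femur marrow of F344 rats and were obtained by growth on plastic, without sorting by surface markers, and with more serum in the medium than the sarcoma lines had.

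Macrophages take up dying cells, modified lipoproteins and other debris through scavenger and lectin receptors, and they send the lipid out again on apolipoproteins. Lipid-laden macrophages in fat, atheroma and tumors are known for a common set of genes, in which the TREM2 receptor with its adaptor TYROBP, apolipoprotein E, GPNMB and galectin-3 recur. Macrophages adhere to plastic as stromal cells do, and bone marrow holds both.

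Promoter windows of 300 bases, from 250 before to 50 after the start of transcription, were given by RefSeq on GRCr8 for 6 of the members, and 4 are printed here for genes that were low in both lines (Lyz2, Trem2 and Mrc1) and for 1 that was not (Gpnmb). Capitals mark GAGGAA or its reverse complement TTCCTC, the core of sites bound by PU.1, the myeloid factor encoded by Spi1, and by other ETS factors. The Lyz2 window is chr7:54797962-54798261 on the minus strand, that of Trem2 chr9:20151730-20152029 on the minus strand, that of Mrc1 chr17:82157475-82157774 on the plus strand and that of Gpnmb chr4:79340878-79341177 on the plus strand. Each sequence runs 5′ to 3′ along its gene.
Lyz2: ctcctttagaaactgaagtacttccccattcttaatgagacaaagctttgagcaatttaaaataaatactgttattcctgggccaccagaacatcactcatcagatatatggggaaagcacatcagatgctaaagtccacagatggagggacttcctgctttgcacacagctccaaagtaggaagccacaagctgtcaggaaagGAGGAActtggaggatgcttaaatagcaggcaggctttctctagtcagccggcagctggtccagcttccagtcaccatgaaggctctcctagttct
Trem2: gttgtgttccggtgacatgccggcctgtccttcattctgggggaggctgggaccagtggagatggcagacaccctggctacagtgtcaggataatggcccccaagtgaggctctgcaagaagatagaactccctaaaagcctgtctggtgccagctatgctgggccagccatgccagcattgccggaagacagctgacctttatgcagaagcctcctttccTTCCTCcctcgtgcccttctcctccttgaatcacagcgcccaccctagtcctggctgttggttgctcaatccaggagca
Mrc1: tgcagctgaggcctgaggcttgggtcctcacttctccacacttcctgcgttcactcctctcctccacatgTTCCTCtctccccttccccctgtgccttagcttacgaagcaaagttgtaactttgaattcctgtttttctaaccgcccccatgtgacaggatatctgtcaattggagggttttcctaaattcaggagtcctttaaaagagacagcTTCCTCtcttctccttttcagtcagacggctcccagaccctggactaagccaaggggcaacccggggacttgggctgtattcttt
Gpnmb: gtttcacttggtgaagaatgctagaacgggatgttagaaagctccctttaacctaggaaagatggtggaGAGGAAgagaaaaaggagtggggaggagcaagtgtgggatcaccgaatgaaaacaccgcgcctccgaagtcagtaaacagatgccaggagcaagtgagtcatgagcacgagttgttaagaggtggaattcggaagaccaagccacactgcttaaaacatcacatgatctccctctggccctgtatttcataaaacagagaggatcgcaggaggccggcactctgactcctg
Counted from the start of transcription, the first marked base lay at -46 in Lyz2 and at -181 in Gpnmb in forward orientation, at -29 in Trem2 in reverse, and at -180 and -35 in Mrc1, both in reverse. Searched on both strands, GAGGAA was present for 5 of the 6 genes with a window, which were these 4 and Apoe, and absent from the Cd163 window. Of all 33469 RefSeq windows, 27.6% held it, and 29.2% of 27457 genes had it in at least 1 window. Of the other motifs searched, AGGTCA, a motif of nuclear receptors, was found in the Trem2 window and in 16.2% of all windows, and TGACTCA, an AP-1 site, in the Gpnmb window and in 4.63% of all. CACGTG, the E-box that MITF and TFEB can bind, was in none of the 6 genes and in 6.42% of all windows. None of the marked letters overlapped another of these motifs. Tyrobp, Msr1, Aif1 and Lgals3 had no entry.

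On each array, between 56.6% and 59.7% of the 43379 spots that were not controls were well above background by the call of the scanner software, and no spot was saturated. The signals given below are processed intensities before scaling, and where 3 values follow a gene or list they stand for MSCs, COS1NR and MFH1NR in this order. For ratios, they were divided by the 75th percentile of their own array, 589 for MSCs, 774 for COS1NR and 994 for MFH1NR, and all log2 ratios below are of these scaled intensities. With 1 array per population, no difference could be set against a spread between cultures. The arrays of COS1NR and MFH1NR were on 1 slide, scanned together, and MSCs on a different one. In ratios to MSCs, cell type and slide cannot be told apart, while the ratio between the lines lies within a slide. Probes printed several times on an array had a median SD between 0.05 and 0.06 in log2 intensity, or between 0.12 and 0.14 below an intensity of 100. A second probe of a gene moved the log2 ratio by 0.28 (COS1NR) and 0.31 (MFH1NR) in the median over 1895 genes, and in the most divergent 10% by over 0.91 and 0.99.

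All 9 members with a probe were well above background in MSCs, 6 were so in COS1NR and 5 in MFH1NR, beside 69.7%, 65.8% and 66.7% of all named genes. At least 2-fold lower in both lines than in MSCs were 7 of the 9, where 14.6% of the 10006 genes used met the same limit, and the exceptions were Gpnmb and Lgals3. Taken line by line, 7 members were lower by this limit in COS1NR and 8 in MFH1NR, beside 22.3% and 23.2% of all genes used. None was higher by 2-fold, where 21.7% of genes were in COS1NR, 20.8% in MFH1NR and 12.2% in both. Since the members were chosen by this contrast, nothing is read from these counts. The median log2 ratio of the members was -4.67 in COS1NR and -8.36 in MFH1NR, or -4.67 and -7.00 with dim probes held at their bound, beside 0.11 and 0.01 for all genes used.

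**Figure D1:**
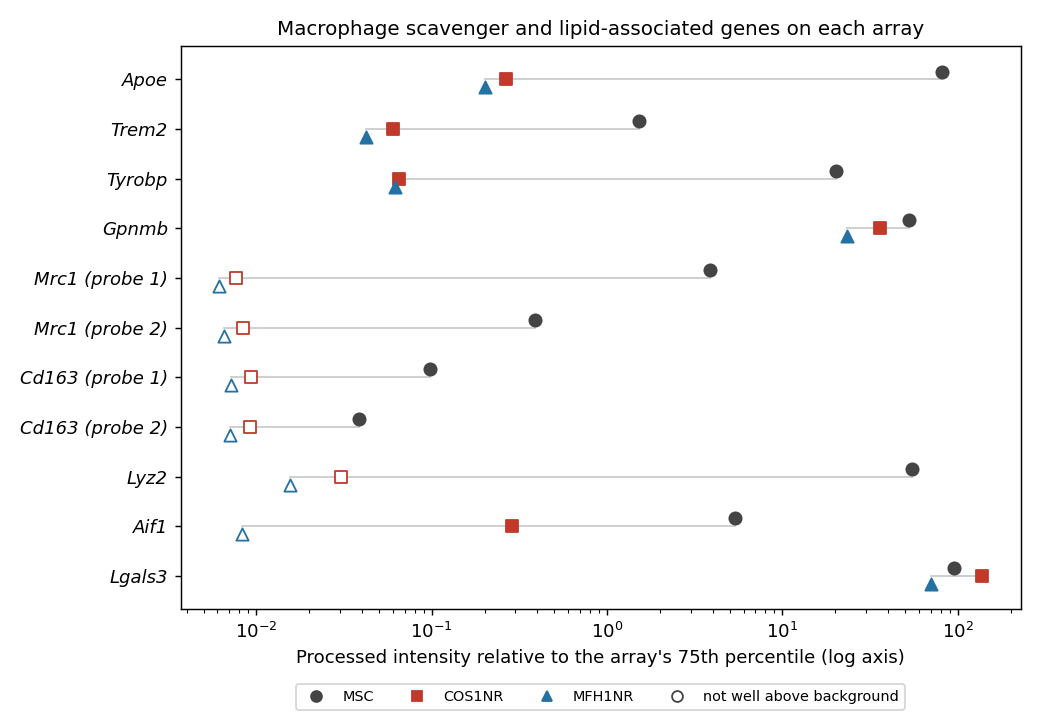
Processed intensity of each member probe divided by the 75th percentile of its array (log axis) in MSC (circles), COS1NR (squares) and MFH1NR (triangles), 1 array each. Open symbols mark probes not well above background, as Mrc1, Cd163 and Lyz2 are in both lines; Gpnmb and Lgals3 are the 2 genes whose 3 symbols lie close together. Rows of different probes are not comparable in level.

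Apoe encodes apolipoprotein E, the lipid carrier through which macrophages release cholesterol. Its signal reached 47977 in MSCs against 206 in COS1NR and 199 in MFH1NR, all well above background. MSCs stood far above both lines, which lay close to each other. The scaled intensity was 307-fold lower in COS1NR than in MSCs and 407-fold lower in MFH1NR, with log2 ratios of -8.26 and -8.67. Between the lines it was 1.33-fold lower in MFH1NR, a log2 ratio of -0.41.

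Trem2 encodes a lipid-sensing receptor of macrophages, osteoclasts and microglia, and Tyrobp the adaptor DAP12 that carries its signal. Trem2 had a signal of 901 in MSCs against 46.5 in COS1NR and 41.8 in MFH1NR. It was 25.5-fold lower in COS1NR (log2 ratio -4.67) and 36.4-fold lower in MFH1NR (-5.18). Both line values were above the lowest intensity that was well above background, 29.4 in COS1NR and 30.1 in MFH1NR, though not far from it, and the error given by the software was 16.1% and 17.6% there against 10% in MSCs. Tyrobp had a signal of 11921 in MSCs against 50.3 in COS1NR and 61.3 in MFH1NR. Its scaled intensity was 312-fold lower in COS1NR (log2 ratio -8.28) and 328-fold lower in MFH1NR (-8.36), and the lines differed by a log2 ratio of only -0.07. Receptor and adaptor were thus both far lower in the lines than in MSCs, with residual intensities just above background.

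The scavenger and lectin receptors of the set were detected in MSCs and in neither line. Mrc1, the mannose receptor CD206, had a signal of 2275 in MSCs against 5.95 in COS1NR and 6.06 in MFH1NR by its brighter probe. For a probe that was dim on an array only a bound can be given, namely its level in MSCs over the lowest level well above background on the dim array. By that bound Mrc1 stood at least 102-fold below MSCs in COS1NR and at least 128-fold below in MFH1NR. Its second probe, at 227 in MSCs against 6.51 in COS1NR and 6.46 in MFH1NR, gave at least 10.2-fold and at least 12.8-fold, a weaker limit because the probe was dimmer in MSCs.

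Cd163, the scavenger receptor for hemoglobin bound to haptoglobin, was dim in MSCs itself, with an intensity of 57.3, and reached 7.22 in COS1NR and 7.13 in MFH1NR. It stood at least 2.56-fold below MSCs in COS1NR and at least 3.21-fold below in MFH1NR. The second Cd163 probe, at 22.6 in MSCs with a software error of 21.2%, had 7.08 in both lines and bounds of 1.01-fold and 1.27-fold only. Averaged over both probes, the log2 bound of Cd163 was -0.69 in COS1NR and -1.01 in MFH1NR, and with no scaling between arrays the brighter probe gave -0.96 and -0.93, so the bounds of this gene did not reach 2-fold under every setting. Well above background in MSCs and in neither line were these receptors and Lyz2, 3 of the 9 members, beside 5.82% of all genes used.

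Lyz2 encodes lysozyme, an antibacterial enzyme that macrophages and granulocytes secrete. Its signal reached 32304 in MSCs against 23.5 in COS1NR and 15.5 in MFH1NR, and neither line was well above background. Scaled, it stood at least 1444-fold below MSCs in COS1NR and at least 1813-fold below in MFH1NR, the widest bounds among the members. Probe sequences were not used here, so hybridization to related lysozyme transcripts was not examined.

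Aif1 encodes IBA1, an actin-binding protein used as a marker of macrophages and microglia, and it is the member that separated the lines most. Its signal reached 3156 in MSCs against 221 in COS1NR and 8.27 in MFH1NR. COS1NR was well above background and 18.7-fold lower than MSCs (log2 ratio -4.23), while MFH1NR was not and lay at least 177-fold below MSCs. Within the slide that held both lines, Aif1 in MFH1NR lay at least 9.45-fold below COS1NR. By that ratio it was the 1 member lower in MFH1NR by 2-fold or more, as were 16.0% of all genes used, and no member was higher there by as much, as were 14.0%.

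Gpnmb encodes a transmembrane glycoprotein of lysosomes and melanosomes that is made by lipid-laden macrophages but also by osteoblasts and melanocytes. Its signal reached 30886 in MSCs against 28014 in COS1NR and 23124 in MFH1NR, so it was bright on every array. The scaled intensity was 1.45-fold lower in COS1NR (log2 ratio -0.53) and 2.25-fold lower in MFH1NR (-1.17), and MFH1NR lay 1.56-fold below COS1NR. The MFH1NR value did not reach 2-fold under every other scaling run, with -0.96 for median scaling, -0.95 for quantile normalization, -0.65 for spike-in probes and -0.42 for none, and it was -0.90 with normexp background correction.

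Lgals3 encodes galectin-3, a lectin that binds galactosides and is made by macrophages and by many fibroblasts and tumor cells. Its signal reached 56081 in MSCs against 106783 in COS1NR and 70039 in MFH1NR. On the scaled intensities it was 1.45-fold higher in COS1NR (log2 ratio 0.54) and 1.35-fold lower in MFH1NR (-0.43) than in MSCs, and this second direction turned with no scaling (0.32) and with spike-in scaling (0.08) and vanished with quantile normalization (0.00). Between the lines, on 1 slide, Lgals3 was 1.96-fold lower in MFH1NR. Gpnmb and Lgals3 were thus the members bright on all arrays.

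**Figure D2:**
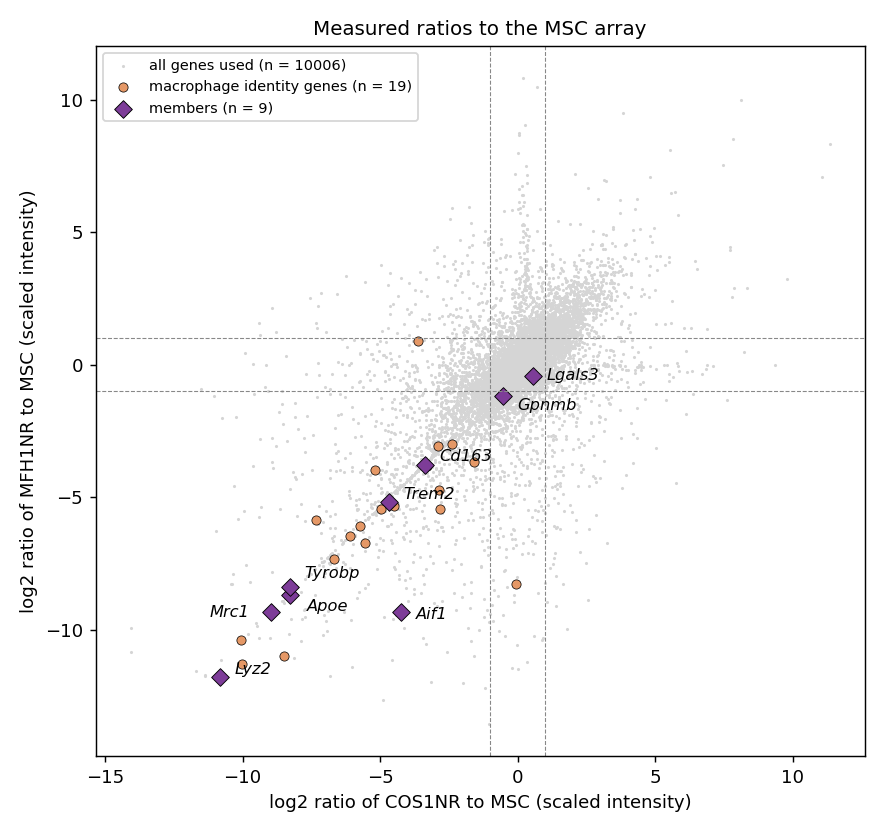
Measured log2 ratios of scaled intensity to MSC, COS1NR on the horizontal and MFH1NR on the vertical axis, for 10006 genes used (grey), 19 macrophage identity genes (orange circles) and 9 members (purple diamonds); dashed lines mark 2-fold. Dim probes are drawn at their measured value, so the points of Mrc1, Cd163 and Lyz2, and that of Aif1 on the vertical axis, lie beyond their bounds. All members but Gpnmb and Lgals3 lie below 2-fold on both axes, and 17 of the 19 identity genes lie there too.

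The genes with the most similar pair of ratios were sought among the other genes well above background on all 3 arrays, 7929 in number, by the Euclidean distance between pairs of log2 ratios. Those nearest to Apoe were C1qtnf5 at a distance of 0.13, Tyrobp at 0.31 and Ccl4, a chemokine of myeloid cells, at 0.41. Apoe was in turn the nearest to Tyrobp, followed by C1qtnf5 at 0.40 and Ccl4 at 0.48. The nearest to Trem2 were Acy3 at 0.08, Olfml2b at 0.19 and C1qb, a chain of complement C1q that macrophages make, at 0.21. Near Gpnmb and Lgals3 genes lay densely, with St3gal4, Letmd1 and Zfp707 each at 0.04 from Gpnmb and Tmem97 at 0.02, Fxr1 at 0.04 and Nek9 at 0.05 from Lgals3. These likenesses rest on 3 arrays and carry no test.

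Genes that define macrophages moved with the members. Of 22 identity genes, 20 had a probe, 19 of these were well above background in MSCs and 8 in each line, and Cx3cr1, a chemokine receptor, was dim on all arrays. At least 2-fold lower in both lines were 17 of the 19 genes used, beside 14.6% of all genes, and none was higher in both. The median log2 ratio of the list was -4.97 in COS1NR and -5.44 in MFH1NR, or -3.91 and -4.93 with dim probes at their bound. The summed scaled level of the list, which adds different probes and includes dim ones at their measured value, and is compared only between arrays, came to 150 in MSCs against 14.9 in COS1NR and 5.54 in MFH1NR. In bulk RNA, fewer cells of a type and less RNA per cell cannot be told apart, and the part of a mixed culture in these values was not tested.

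Spi1, the gene of PU.1, had a signal of 391.5 in MSCs against 10.9 in COS1NR and 6.33 in MFH1NR. It was at least 17.5-fold and at least 22.0-fold lower in the lines. Csf1r, the receptor for macrophage colony-stimulating factor, had 1238, 51.7 and 48.9, with log2 ratios of -4.97 and -5.42. The largest differences of the list were those of the Fc receptors Fcgr2b, at least 407-fold and 511-fold lower, and Fcgr1a, at least 336-fold and 422-fold lower, and of the complement gene C1qa, at least 244-fold and 306-fold lower. The pan-leukocyte gene Ptprc (CD45) was dim in MSCs at 57.5 and at least 2.57-fold and 3.23-fold lower, and its other two probes gave log2 bounds between -2.14 and -1.54.

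Cd68, a lysosomal glycoprotein, remained bright in the lines, at 7120 in MSCs against 3135 in COS1NR and 956 in MFH1NR, with log2 ratios of -1.58 and -3.65. Mertk, a receptor for the uptake of dying cells, had 59.96, 6.41 and 189, at least 2.68-fold below MSCs in COS1NR and 1.87-fold above them in MFH1NR. Mertk was thus a gene of the list that went opposite ways in the lines, with MFH1NR above MSCs.

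**Figure D3:**
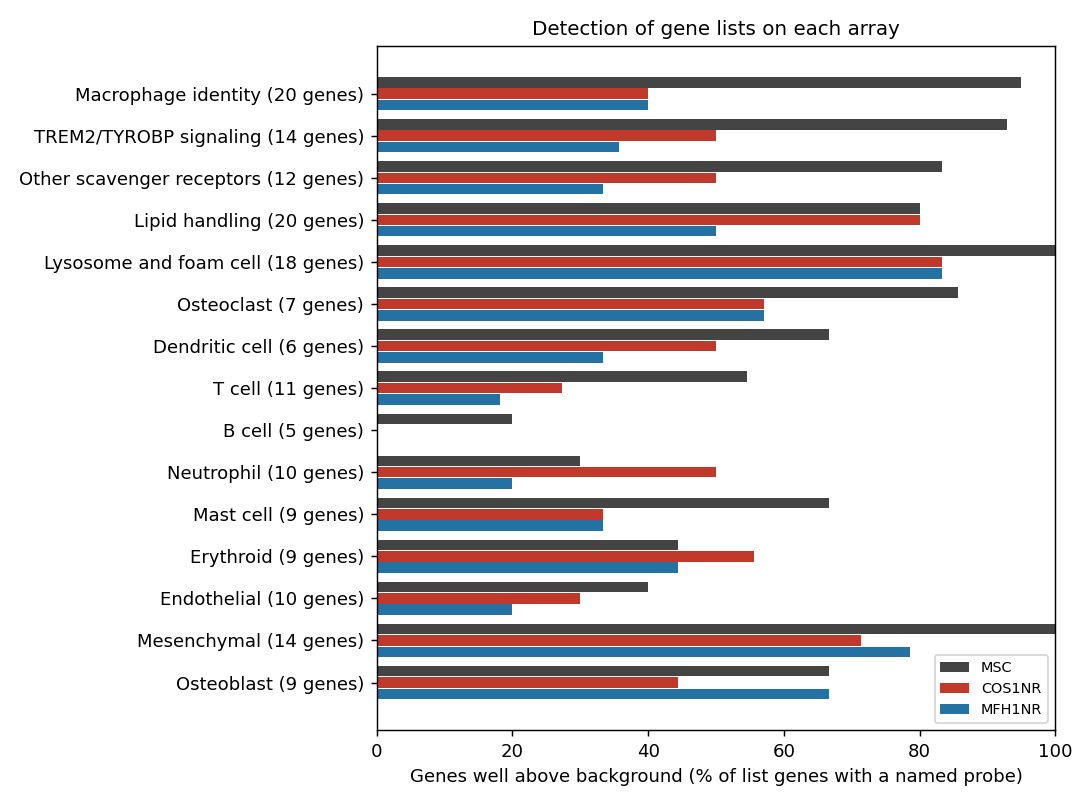
Share of the genes of each list that were well above background (%, horizontal axis) on the MSC, COS1NR and MFH1NR arrays, over the list genes with a named probe (number in brackets). Of the macrophage identity genes 19 of 20 were detected in MSCs and 8 in each line, and other lists in MSCs range from 1 of 5 B cell genes through 6 of 11 T cell, 4 of 6 dendritic cell and 6 of 9 mast cell genes to 6 of 7 osteoclast and all 14 mesenchymal genes, beside 69.7% of all named genes.

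Markers of other cells that marrow can hold were read on the same arrays. Well above background in MSCs were 1 of 5 B cell, 3 of 10 neutrophil, 4 of 10 endothelial, 4 of 9 erythroid, 6 of 11 T cell, 6 of 9 mast cell and 4 of 6 dendritic cell genes with a probe, beside 69.7% of all named genes. By the 2-fold limit 3 of 6 T cell, 3 of 6 mast cell, 3 of 5 endothelial, 1 of 1 B cell, 0 of 6 neutrophil and 0 of 5 erythroid genes used were lower in both lines, where 14.6% of all genes were. Among T cell genes, Zap70, a kinase of T cell receptor signaling, was at least 7.73-fold and 9.70-fold lower in the lines, and Cd8a and, by its measured values, Cd4 were also lower. Of the others used, Lck was 2.43-fold higher in COS1NR, Cd3d had log2 ratios of 0.59 and -0.28, and Cd8b had 0.05 and -0.42. Cd3e, Cd3g, Cd5, Cd28 and Trat1 were not well above background on any array, and the summed scaled level of the list came to 1.41 in both MSCs and COS1NR and to 0.773 in MFH1NR. The neutrophil list summed to 0.466, 12.2 and 0.290. Most of the COS1NR sum came from Lcn2, a lipocalin also made by many epithelial and tumor cells, at 33.9 in MSCs and 8659 in COS1NR, and S100a8 and Csf3r were higher in COS1NR too, while Elane, S100a9, Cxcr2 and Mmp8 were not well above background anywhere. No B cell gene was well above background in either line, with Cd79b, Cd22 and Cr2 dim on all arrays. The mast cell list summed to 3.84, 2.48 and 2.12. Its proteases Mcpt1, at least 20.0-fold and 25.1-fold lower in the lines, Cpa3 and Cma1 were lower in both. The tryptase genes Tpsab1, with log2 ratios of -0.19 and -0.48, and Tpsb2, with -0.14 and -0.63, stayed within 2-fold, with Kit, Ms4a2 and Fcer1a not well above background anywhere. The endothelial list summed to 1.17, 0.356 and 0.162, with Pecam1, Tek, Emcn, Cldn5 and Sox17 dim on all arrays. The erythroid list summed to 62.2, 35.0 and 13.9, nearly all of it from the transferrin receptor Tfrc, with Hbb, Gata1, Slc4a1 and Epb42 dim on all arrays.

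Genes of osteoclasts and dendritic cells went in several directions. Of 7 osteoclast genes 6 were well above background in MSCs and 4 in each line, with a summed level of 72.1, 2.72 and 9.95. Acp5, the tartrate-resistant acid phosphatase of osteoclasts and some macrophages, had 24581 in MSCs against 102 in COS1NR and 36.5 in MFH1NR. Calcr, the calcitonin receptor of mature osteoclasts, was not well above background on any array. Of the 6 used, 4 were at least 2-fold lower in both lines, beside 14.6% of all genes, while Car2, a carbonic anhydrase, had log2 ratios of -1.66 and 3.88. The dendritic list summed to 8.76, 2.79 and 0.382. Lower in both lines were 2 of 4 genes used, namely Cd83 and Ccr7, beside 14.6% of all genes. The other two, Batf3 and Ccl22, were higher in COS1NR, with log2 ratios of 2.15 and 2.75, and in MFH1NR had -0.80 and a bound of -2.61. Itgae and Xcr1 were dim on all arrays. All 14 mesenchymal genes were well above background in MSCs, as were 10 in COS1NR and 11 in MFH1NR, beside 69.7%, 65.8% and 66.7% of all named genes. In both lines 8 were at least 2-fold lower than in MSCs, beside 14.6% of all genes. Of 9 osteoblast genes with a probe 6, 4 and 6 were well above background in MSCs, COS1NR and MFH1NR, and Phex and Sost were dim throughout. The mesenchymal list summed to 1118, 153 and 300.1 and the osteoblast list to 16.7, 2.07 and 3.07. The part of any of these cells in the members' values was not tested.

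Receptors that pair with TYROBP or act beside it, and kinases and adaptors that act downstream, were low in the lines in most cases. Of 14 genes with a probe, well above background were 13 in MSCs, 7 in COS1NR and 5 in MFH1NR. At least 2-fold lower in both lines were 10 of the 13 used, beside 14.6% of all genes, among them the receptors Trem1 and Siglec5. The median log2 ratio was -3.62 in COS1NR and -5.15 in MFH1NR, or -2.02 and -3.54 at the bounds. The adaptor Lcp2 (SLP-76) was at least 34.7-fold and 43.6-fold lower, with log2 bounds of -5.97 and -6.30 by its second probe, the exchange factor Vav1 at least 28.1-fold and 35.3-fold, and Syk, the kinase that binds the phosphorylated adaptor, at least 10.98-fold and 13.8-fold.

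A pair of genes in that list was higher in COS1NR. Plcg2, a phospholipase C that acts below TREM2, had 207 in MSCs against 1189 in COS1NR and 6.08 in MFH1NR, which is 4.38-fold above MSCs in COS1NR and at least 11.6-fold below them in MFH1NR. Fgr, a Src-family kinase of myeloid cells, had 383, 1241 and 9.60, with 2.46-fold higher and at least 21.5-fold lower. Sirpa, an inhibitory receptor that binds CD47, had log2 ratios of -0.76 and 0.06. COS1NR thus held Plcg2 and Fgr transcripts above the level of MSCs while Trem2 and Tyrobp were close to background.

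Of the other scavenger and lectin receptors, 12 of 20 had a probe, and 10, 6 and 4 were well above background in MSCs, COS1NR and MFH1NR. At least 2-fold lower in both lines were 5 of 10 genes used, beside 14.6% of all genes, namely the scavenger receptors Colec12, Scara5 and Olr1 and the lectins Clec4a1 and Clec10a. Colec12, which also occurs on stromal and endothelial cells, had 6026, 1027 and 18.6, or 7.71-fold and at least 338-fold lower, and its second probe gave log2 values of -3.86 and a bound of -4.48. Clec4a1 was at least 18.5-fold and 23.2-fold lower and Clec10a, a lectin of macrophages and dendritic cells, at least 12.1-fold and 15.2-fold. The median of the list was -2.77 and -3.61, or -2.23 and -2.29 at the bounds.

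The receptors Cd36 and Scarb1 of that list differed from MSCs in opposite directions in the lines, unlike Olr1, the receptor for oxidized lipoprotein, which was lower in both. Cd36, a receptor for fatty acids and oxidized lipoprotein, had 102.5 in MSCs against 665 in COS1NR and 22.2 in MFH1NR, being 4.94-fold higher and at least 5.75-fold lower. Scarb1, the receptor for high density lipoprotein, had 885, 509 and 4050, with log2 ratios of -1.19 and 1.44, but its second probe gave -2.35 and -0.18. The higher value of Scarb1 in MFH1NR was therefore seen with 1 of 2 probes.

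Genes of lipid handling were read beside Apoe. Of 20 with a probe, well above background were 16 in MSCs, 16 in COS1NR and 10 in MFH1NR. Among 17 used, 1 was at least 2-fold lower in both lines, beside 14.6% of all genes, a list too short to set against that share. It was Ch25h, the cholesterol 25-hydroxylase of activated macrophages. Line by line, 3 of the 17 were lower by 2-fold and 5 higher in COS1NR, and 9 were lower and 1 higher in MFH1NR, beside 22.3%, 21.7%, 23.2% and 20.8% of all genes. The median log2 ratio was 0.31 in COS1NR and -1.09 in MFH1NR. Above MSCs by 2-fold or more in COS1NR and below them by as much in MFH1NR were 4 of the 17, as were 1.64% of all genes used. These were Fabp4, Lpl, Pparg and Abcg1.

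Fabp4, the fatty acid binding protein of adipocytes and macrophages, had a signal of 307 in MSCs against 21786 in COS1NR and 23.5 in MFH1NR. It was 54.1-fold above MSCs in COS1NR and at least 17.2-fold below them in MFH1NR. Lpl, the lipoprotein lipase, had 456, 5714 and 7.39, or 9.53-fold higher and at least 25.6-fold lower, and its second probe gave log2 values of 2.97 and a bound of -3.64. Pparg, the nuclear receptor that drives Fabp4, Lpl and Cd36 in adipocytes and macrophages, had 174, 1638 and 13.6, or 7.15-fold higher and at least 9.79-fold lower.

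Abcg1, a cholesterol exporter, had 1192, 4924 and 6.62, or 3.15-fold higher and at least 66.9-fold lower. Nr1h3, the liver X receptor that controls Abcg1 and Apoe in macrophages, had 2411, 6052 and 2716, with log2 ratios of 0.93 and -0.58. Fabp5, the epidermal fatty acid binding protein, was bright throughout with log2 ratios of 0.31 and -2.97. The fifth gene higher in COS1NR, the apolipoprotein gene Apoc1, was dim in MSCs and stood at least 2.15-fold above them. In COS1NR, Apoe was thus 307-fold lower than in MSCs while 5 other lipid genes were higher by 2-fold or more.

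**Figure D4:**
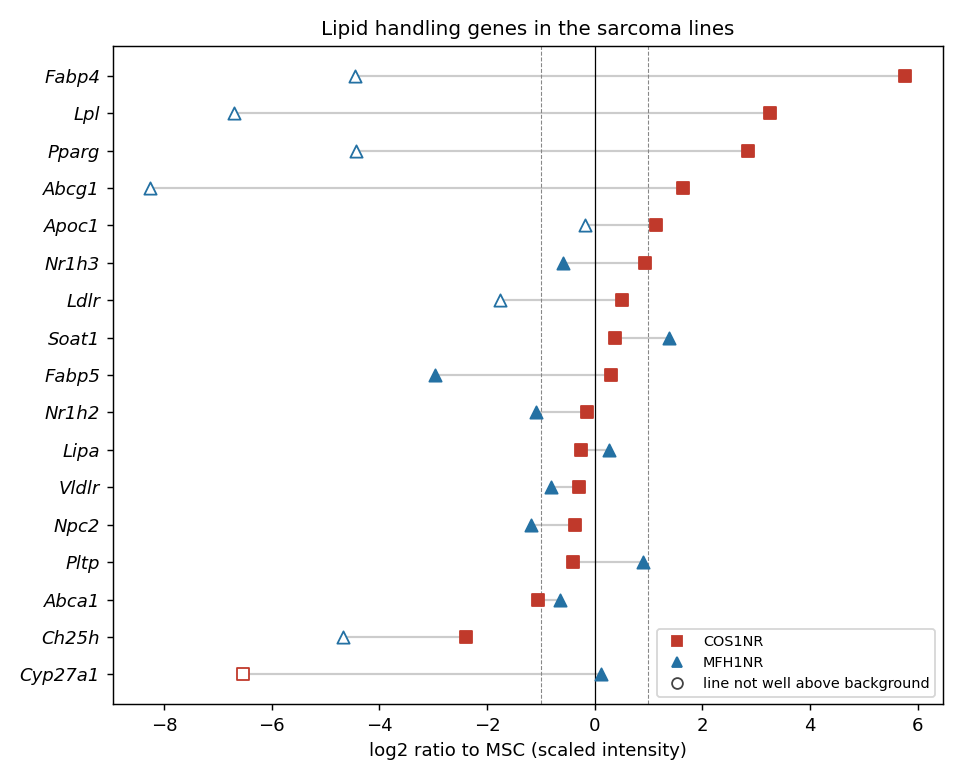
Log2 ratio of scaled intensity to MSC (horizontal axis) in COS1NR (squares) and MFH1NR (triangles) for the 17 lipid handling genes used, ordered by the COS1NR value; dashed lines mark 2-fold and open symbols lines not well above background. Fabp4, Lpl, Pparg and Abcg1 lie right of the upper limit in COS1NR and are dim in MFH1NR, and Ch25h lies left in both.

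Genes of lysosomes and foam cells were detected on most arrays, as Gpnmb and Lgals3 were. All 18 with a probe were well above background in MSCs and 15 in each line, beside 69.7%, 65.8% and 66.7% of all named genes. Lower in both lines by 2-fold or more were 4, beside 14.6% of all genes, and line by line 7 were lower in COS1NR and 11 in MFH1NR, beside 22.3% and 23.2%. The list had medians of -0.74 (COS1NR) and -1.17 (MFH1NR) in log2 ratio. Ctss, the cathepsin of antigen-presenting cells, had 3073 in MSCs against 19.0 in COS1NR and 7.14 in MFH1NR, so it was at least 137-fold and 173-fold lower. Atp6v0d2, a proton pump subunit of osteoclasts and macrophages, was at least 7.83-fold and 8.71-fold lower, and Ctsb, a widely expressed cathepsin, 2.10-fold and 2.22-fold. Tfec was counted by its measured values, while its bounds were 1.26-fold and 1.58-fold.

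Tfeb, a transcription factor of lysosomal genes, was the 1 gene of the list at least 2-fold higher in both lines, at 89.8, 640 and 621, with log2 ratios of 2.44 and 2.03. Spp1, osteopontin of macrophages and bone cells, had 36180, 22285 and 149222, with -1.09 in COS1NR and 1.29 in MFH1NR. Of the widely expressed lysosomal genes, Psap had log2 ratios of -0.38 and -2.03, Ctsd -0.31 and -1.26, Ctsl 0.14 and -1.20, Lamp1 -0.92 and -1.09 and Hexa -1.34 and -0.72. Grn and Lamp2 stayed within 2-fold of MSCs in both lines, with values between -0.71 and 0.14.

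Relatives of Lgals3 and Aif1 were read as well, while those of Lyz2 are not analysed here. Of 13 genes of this list 8 had a probe and 6 were well above background on each array. None of the 6 used was at least 2-fold lower or higher in both lines, beside 14.6% and 12.2% of all genes. The list is too short to set against those shares. Lgals1, the galectin of stromal cells, had 202515, 158161 and 169357, with log2 ratios of -0.75 and -1.01. Aif1l, the paralog of Aif1, was 4.09-fold higher in COS1NR and 1.62-fold higher in MFH1NR by its brighter probe, opposite to Aif1 in both lines. Its second probe was dim in MSCs and MFH1NR. That probe gave a log2 bound of 1.24 in COS1NR and no ratio in MFH1NR. Lgals3bp, a secreted ligand of galectin-3, had -2.83 and -0.64.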

How the data were processed

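RNA of MSCs, COS1NR and MFH1NR was labeled with Cy3 and hybridized to 1 whole rat genome array each. For RNA and labeling the methods and the sample labels name different kits. The authors deposited the processed intensity of each spot, made with Agilent Feature Extraction (10.5.1.1 in the file headers, 9.1 in the labels), which subtracted background, set dim spots to a surrogate and did not scale between arrays. The deposited series table held the same intensities on all 45018 spots. Control spots and outlier spots (187 to 217 per array) were left out, spots of a probe were averaged on the log2 scale, and each array was divided by its 75th percentile. Of 40816 probes, 16745 were named for 13301 genes through RefSeq accessions and a GRCr8 gene table. The array design was annotated on another build, so only promoter windows have coordinates. A gene was its probe of highest mean log2 intensity over the 3 arrays, which is not always the one brightest in MSCs, and it was used where 1 array or more had that probe well above background (10006 genes).

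Genes at least 2-fold apart were counted on measured values, and no test was made. The members and gene lists were chosen with earlier results of these data known. Named are all members, the 3 largest changes in each direction of each list among genes called in both lines, list genes that go against their list, and the 3 genes nearest to a member; further list genes were named after their values were seen. A few list genes that enter the counts are not reported here by name. Alternatives were no, median, quantile and spike-in scaling (7 probes), normexp on median spot intensities (offset 50), intensities raised to the background limit, the deposited series values, averaging the probes of a gene, other filters on dim probes and a 3-fold limit. Spike-in scaling and the median spot intensity in normexp were chosen after seeing the data. The counting was tested on simulated data. Python 3.11.15 with numpy 2.4.6, pandas 2.3.3 and matplotlib 3.10.9 were used, and limma 3.58.1 in R 4.3.3.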

Additional observations from a re-analysis of the deposited data

Results flagged for a closer look

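The following genes went opposite ways in the lines, a difference that was not tested with 1 array per population. Lgals3 had log2 ratios of 0.54 (COS1NR) and -0.43 (MFH1NR) to MSCs and was the 1 member of this kind. Its MFH1NR value was 0.32 with no scaling, 0.08 with spike-in scaling and 0.00 with quantile normalization, so it did not go opposite ways under those settings. Genes of the other lists are given where they differed by 2-fold or more each way with dim probes at their bound. This leaves out smaller pairs such as Mertk with a bound of -1.42 and 0.90. It also leaves out Lcn2, S100a8, Csf3r and the endothelial gene Flt1, which met the limit each way only by the measured values of dim probes. Higher in COS1NR and lower in MFH1NR were Cd36 with 2.30 and a bound of -2.52, Lpl with 3.25 and a bound of -4.68, Fabp4 with 5.76 and a bound of -4.11, Abcg1 with 1.65 and a bound of -6.06, and Pparg with 2.84 and a bound of -3.29. The same held for Plcg2 with 2.13 and a bound of -3.54 and for Fgr with 1.30 and a bound of -4.43. The dendritic cell gene Ccl22 had 2.75 and a bound of -2.61. Lower in COS1NR and higher in MFH1NR were Scarb1 with -1.19 and 1.44, Spp1 with -1.09 and 1.29 and the osteoclast gene Car2 with -1.66 and 3.88. The second probe of Scarb1 did not show the higher value. In COS1NR, Scarb1 had -0.80 with no scaling, and Spp1 had -0.70 with no scaling and -0.93 with median scaling, less than 2-fold.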

How the results depend on the processing

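Of 7 members at least 2-fold lower in both lines, the count was 7 under every alternative run except the filter for genes well above background on all 3 arrays, which left 5 members, 3 of them lower. Of 144 member ratios under alternatives, 98 moved by less than 0.29, the typical gap from one probe of a gene to another, and 44 moved by more. The other 2 changed sign, both of Lgals3 in MFH1NR (0.32 with no scaling, 0.08 with spike-in scaling). Some of the 98 could not have moved, so their number does not measure stability. The deposited values were the same intensities, raising to the background limit changed no member ratio, and averaging probes alters only Mrc1 and Cd163. Without scaling 1038 genes were lower and 2459 higher in both lines, with median scaling 1279 and 1560, and with normexp 1167 and 732, against 1462 and 1225. The median log2 ratio of all genes was 0.51 and 0.77 in COS1NR and MFH1NR with no scaling, and -0.16 and 0.53 with spike-in probes. Counts use measured values, and the bound of Cd163 did not reach 2-fold without scaling in both lines and with the mean of its probes in COS1NR. The 3-fold limit gave 1043 lower and 555 higher, and the filter for all 3 arrays 695 and 960.

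The identity list had 17 genes lower in both lines, and 7 with the filter for all 3 arrays. Its median over both lines, -4.91, was -4.34 with no scaling, -3.44 with normexp, -4.12 with the floor at the background limit and -4.12 with that filter. For the other scavenger receptors the count of 5 went to 0 with the filter, and the median of -2.80 to -2.23 with no scaling, -1.66 with normexp, -1.83 with the floor, -1.97 with no filter and -0.44 with the filter. The TYROBP list went from 10 genes to 4, and from a median of -3.81 to -3.23, -1.81, -2.39 and -2.39 with no scaling, normexp, the floor and the filter. The lipid list went from 1 gene to 0 with the filter and its median from -0.62 to -0.05 with no scaling. The lysosome list went from 4 genes to 2 with normexp and 1 with the filter, and its median from -0.99 to -0.42 with no scaling. The galectin and lysozyme list went from 0 genes to 1 with no filter, and its median from -0.82 to -0.25 with no scaling and -0.52 with quantile normalization. The filter removes genes dim in a line by construction. The other causes were not tested. Naming by the gene names of the array design was not run. No paired analysis was possible because each population has 1 array.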
